A study of Mus musculus with 33 samples.

Results

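The transcripts of 10 genes of the microtubule cytoskeleton were followed across the cell classes of the mouse hippocampal neurogenic niche. They were chosen by symbol among the 18847 gene symbols of the count tables: the stathmins Stmn1, Stmn2 and Stmn3, doublecortin (Dcx), the beta-tubulins Tubb3, Tubb5, Tubb4a and Tubb2b, and the collapsin response genes Dpysl3 and Crmp1. Each had 1 row in the tables. Stmn1, Tubb5 and Tubb2b had counts in all 33 libraries, and Dcx, the member found in the fewest, in 26.

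Microtubules are hollow polymers of alpha- and beta-tubulin that grow and shrink at their ends. Beta-tubulin is encoded by several genes, among which Tubb3 and Tubb2b are known from developing neurons, Tubb5 from dividing and immature cells, and Tubb4a from neurons and myelinating oligodendrocytes. Stathmins bind free tubulin dimers and promote shrinkage, Dcx binds and stabilises the polymer in migrating neurons and is the classical marker of adult-born neuroblasts, and the collapsin response proteins bind tubulin dimers or the polymer in growing axons. In oligodendrocytes microtubules carry cargo into the processes that wrap axons.

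By RefSeq positions on GRCm38.p6 the genes are spread over 9 chromosomes, so that only Tubb5 (chr17:35833920-35838301) and Tubb4a (chr17:57080061-57087600) share one. Stmn1 lies at chr4:134468320-134473843, Stmn2 at chr3:8509527-8561604 and Stmn3 at chr2:181306459-181314500. Dcx lies at chrX:143855842-143933396, Tubb3 at chr8:123411553-123422015 and Tubb2b at chr13:34127008-34130354. Dpysl3 lies at chr18:43320979-43438286 and Crmp1 at chr5:37242058-37292163. Of the 50-base words in the last 500 bases of their GENCODE vM21 transcripts, 32.99% for Stmn1 also occur in the transcripts of another gene, Gm11223, so that the counting of Stmn1 could be split. The share was 0.832% for Dcx and 0% for the other 8 genes.

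Cells came from the brains of C57BL/6 mice labelled wild-type. The series names the hippocampal niche as the source, and live cells negative for antibodies against GluR1, a neuronal glutamate receptor subunit, and Cd24, a surface protein of neuroblasts and other cells, were sorted singly. SORT-seq, a plate form of CEL-Seq2 that counts the 3' ends of transcripts with a unique molecular identifier (UMI), was run on 1 library of mice older than 12 months, 1 library labelled NestinGFP, and 31 niche libraries of 5 numbered experiments. The NestinGFP label names a reporter of the promoter of Nestin, a filament gene of neural stem cells, while the genotype field of that library reads wild-type. All 3 groups carry the same sort in their labels, and no treatment is given. The labels state no age for the other 2 groups and no number of animals per experiment. P-values therefore measure the spread between experiments, which may be technical. The test shares its estimate of this spread across genes, so a very small p does not rest on the experiments of that gene alone.

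A library held 29427 to 1981760 transcripts, and 1738 of 4608 wells had at least 1000 and were kept, 1285 of them from the niche experiments. Spike-in RNA took 27.04% to 81.3% of the counts of the libraries of experiment 3 and 43.6% to 49.3% in experiment 5, against 3.01% to 24.7% in the other niche libraries. Of 7105 pairs of wells that share a number in 2 libraries, none had profiles correlated above 0.95. Clusters were named from markers that exclude the 10 genes, and are called "-like" for that reason. The niche experiments gave 182 neuroblast-like cells and 259 oligodendrocyte precursor-like cells. Of the 12 neuroblast markers, 11 or 12 were detected in each experiment, although Cd24-positive cells had been sorted away. Eomes, a factor of intermediate progenitors, had 415 to 1273 CPM in these cells, and Dlx2, a factor of forebrain interneuron lineages, was at 0 CPM in experiments 1, 3 and 5 and at 2.73 and 63.3 CPM in experiments 2 and 4.

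RefSeq promoters, 250 bases before to 50 bases after the start, were read for 6 of the 10 genes. Those of Stmn1, Stmn2, Tubb2b and Dpysl3 were not read, so the counts below say nothing about them. The promoters of Tubb4a, which was high in mature oligodendrocyte-like cells, of Tubb5 and Tubb3, which were high in neuroblast-like cells, and of Dcx are shown so that genes of one family with opposite patterns can be set side by side. Capitals mark CANNTG, the E-box letters read by basic helix-loop-helix factors, which reads the same on both strands in its fixed letters.
Tubb4a, chr17:57087551-57087850, minus strand: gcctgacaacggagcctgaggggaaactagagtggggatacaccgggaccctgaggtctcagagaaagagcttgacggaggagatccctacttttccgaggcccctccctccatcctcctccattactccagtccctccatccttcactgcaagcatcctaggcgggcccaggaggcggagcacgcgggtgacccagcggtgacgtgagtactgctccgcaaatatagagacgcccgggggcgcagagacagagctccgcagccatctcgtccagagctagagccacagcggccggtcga
Tubb5, chr17:35838252-35838551, minus strand: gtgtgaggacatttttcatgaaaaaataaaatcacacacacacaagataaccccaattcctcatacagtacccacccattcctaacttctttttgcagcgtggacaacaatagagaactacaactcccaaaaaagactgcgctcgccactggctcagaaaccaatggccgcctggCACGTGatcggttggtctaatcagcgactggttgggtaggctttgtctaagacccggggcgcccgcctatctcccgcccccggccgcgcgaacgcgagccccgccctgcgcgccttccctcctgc
Tubb3, chr8:123411303-123411602, plus strand: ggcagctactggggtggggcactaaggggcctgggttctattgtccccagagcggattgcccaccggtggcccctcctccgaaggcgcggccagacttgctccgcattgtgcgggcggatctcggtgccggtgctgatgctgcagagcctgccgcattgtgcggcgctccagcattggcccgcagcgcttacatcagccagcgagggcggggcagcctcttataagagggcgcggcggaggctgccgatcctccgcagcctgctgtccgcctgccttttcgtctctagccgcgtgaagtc
Dcx, chrX:143933170-143933469, minus strand: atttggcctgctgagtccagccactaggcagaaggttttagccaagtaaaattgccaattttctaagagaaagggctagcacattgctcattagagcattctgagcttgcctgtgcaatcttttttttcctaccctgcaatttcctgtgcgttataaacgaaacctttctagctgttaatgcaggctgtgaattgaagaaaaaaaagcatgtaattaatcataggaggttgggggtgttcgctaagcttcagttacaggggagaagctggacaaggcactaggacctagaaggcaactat
CANNTG occurred 1 time in the Tubb5 promoter, as CACGTG at 75 bases before the start, and in none of the Tubb4a, Tubb3 and Dcx promoters. Of 32851 RefSeq mouse promoters of 27025 genes, 72.3% hold it. Stmn3 also held 1 match, CAGATG, which 17.2% of promoters hold and which is itself a form of CANNTG. Searched on both strands, GGGCGG was found 2 times in the Tubb3 promoter, 2 times in Tubb5, 5 times in Crmp1 and 0 times in Tubb4a, Dcx and Stmn3, and 35.7% of all promoters hold it. CCAAT was found 2 times in Tubb5, 1 time in Tubb3 and 1 time in Dcx, and 37.4% of promoters hold it. TATAAA was found in the Dcx promoter alone among the 6, at 98 bases before the start used here, and 13.6% of promoters hold it. CAGCTG, in 16.3% of promoters, was in none of the 6. The promoter table lists 2 starts for Dcx, and the more upstream of them, used here, lies inside the annotated span of the gene rather than at its 5' end.

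Levels are in CPM: counts summed over the cells of a class in 1 experiment and scaled to the same total. They are given where the class had at least 5 cells there, with mean ± SD over experiments. They compare classes for 1 gene, not genes with one another. Mature neuron-like cells, 8 in the niche experiments, did not reach 5 in any of them and are left out of the order below. Fewer cells with a transcript and fewer transcripts per cell cannot be told apart in such sums. The 10 genes fell into different orders over the classes: Stmn2, Dcx, Tubb3, Dpysl3, Crmp1, Stmn3, Tubb2b and Stmn1 had their highest mean in neuroblast-like cells, Tubb5 in proliferating progenitor-like and neuroblast-like cells alike, and Tubb4a in mature oligodendrocyte-like cells.

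**Figure D1:**
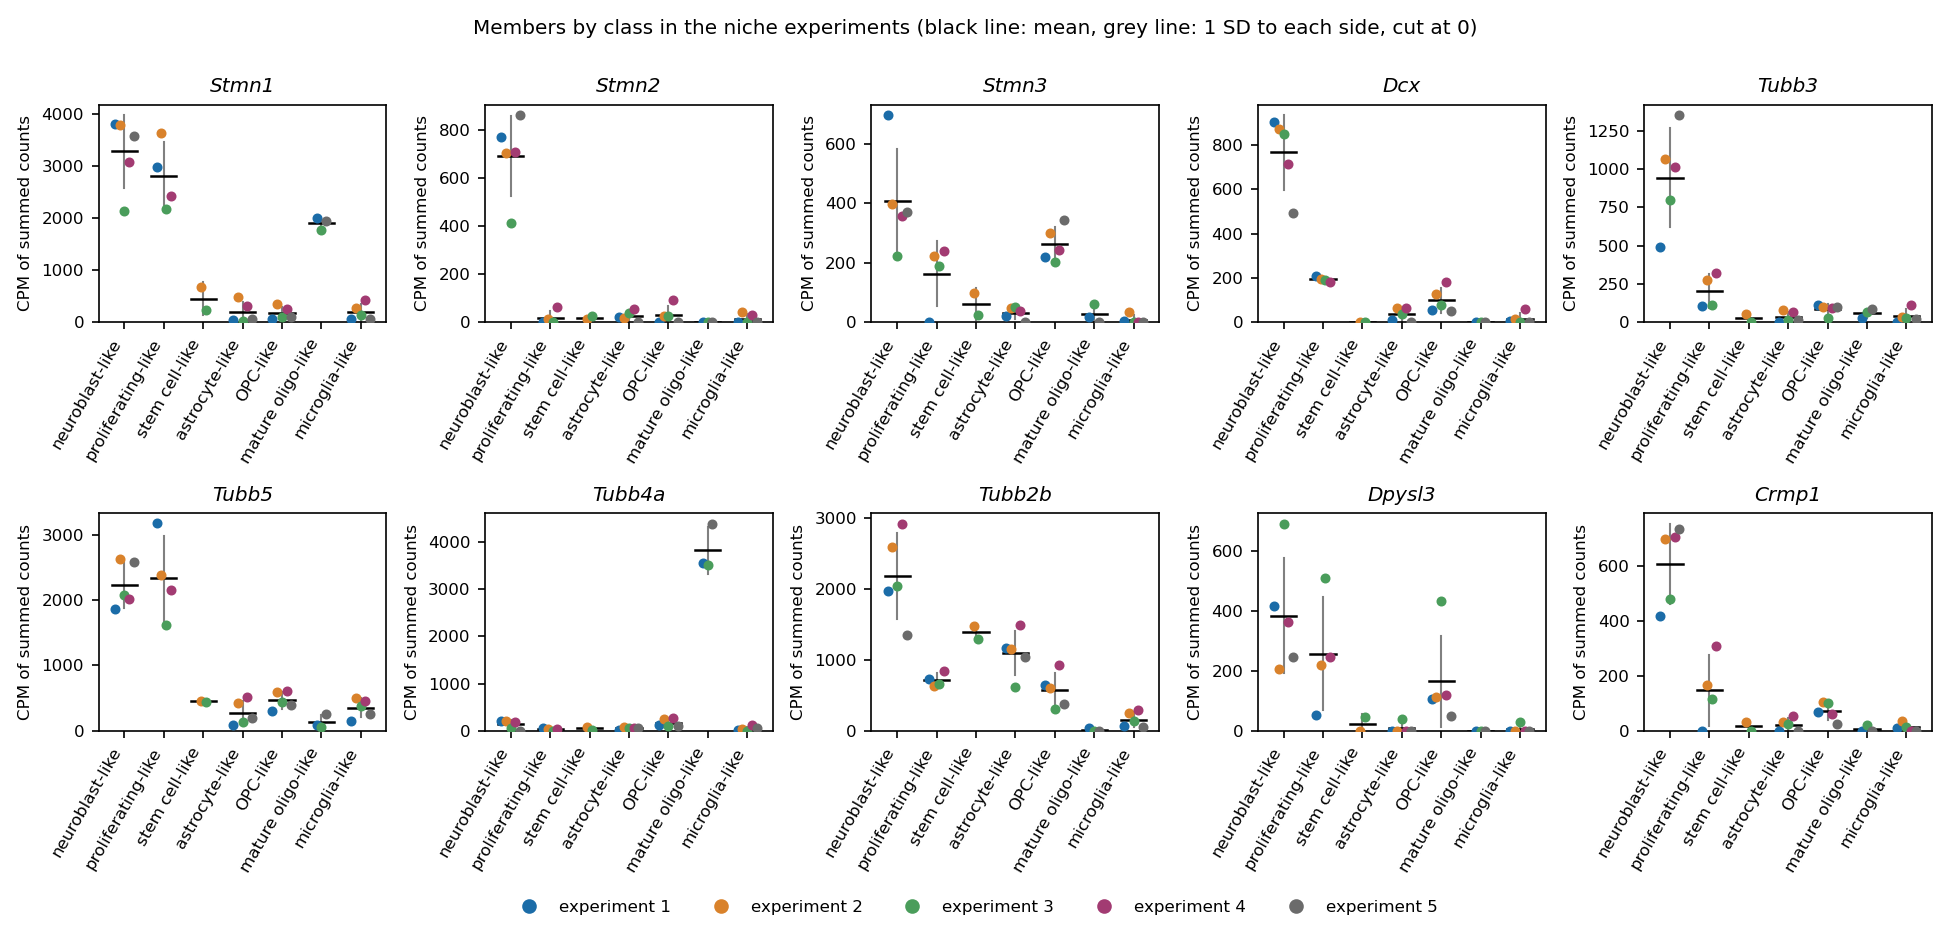
Level of each gene in 7 classes of the niche experiments. The y axis is CPM of summed counts, each point is 1 experiment with at least 5 cells of the class, the black line is the mean and the grey line 1 SD to each side, cut at 0. Stmn1 stands high in 3 classes (neuroblast-like, proliferating progenitor-like and mature oligodendrocyte-like cells), Tubb4a in mature oligodendrocyte-like cells, and Dcx and Stmn2 in neuroblast-like cells.

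Stmn1 had 3809, 3789, 2139.6, 3067 and 3575 CPM in the neuroblast-like cells of experiments 1 to 5. It had 2981, 3639.6, 2168 and 2416 CPM in the proliferating progenitor-like cells of experiments 1 to 4. The ranges of these classes overlapped. Mature oligodendrocyte-like cells followed, with 1991, 1767 and 1941 CPM in experiments 1, 3 and 5, all under the lowest neuroblast-like value. Neural stem cell-like cells had 669 and 233 CPM in experiments 2 and 3, astrocyte-like cells 187 ± 207 CPM and oligodendrocyte precursor-like cells 166 ± 120.5 CPM (SD, n = 5 each). The last 2 did not stand above microglia-like cells, with 189.6 ± 162 CPM (SD, n = 5). In these 3 classes Stmn1 was highest in experiments 2 and 4, the experiments with most transcripts per neuroblast-like cell. The sums of the 12 neuroblast markers were highest there too. They were 672 and 634 CPM in astrocyte-like cells, against 77.5 to 226 CPM in the other experiments. Microglia-like cells had 500 and 570 against 139 to 308 CPM, and precursor-like cells 1218 and 1521 against 864 to 1170 CPM. The part of that depth and of these markers in the Stmn1 values was not tested.

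Stmn2, a membrane-bound stathmin of growth cones, had 769, 703, 413, 707 and 862 CPM in neuroblast-like cells. Among other classes with at least 5 cells in an experiment, the highest value was 110.3 CPM, on 6 counts in the 12 fibroblast-like cells of experiment 4. No other such class reached 100 CPM in any experiment. The 8 mature neuron-like cells of the niche were too few per experiment for this rule. Their cluster was named on 5 detected markers and led by Reln (3560.6 to 10304.5 CPM by experiment), so its name is uncertain. When pooled, they had 1191 CPM of Stmn2. Pooled neuroblast-like cells had 687 CPM. Proliferating progenitor-like cells had 18.7 ± 29.1 CPM (SD, n = 4), so that Stmn1 and Stmn2, of one family, were set apart in this class. Stmn3, a stathmin of neurons, was spread more widely: 698, 399, 223, 358 and 369 CPM in neuroblast-like cells and 219.8, 298, 203, 242 and 345 CPM in oligodendrocyte precursor-like cells. These ranges overlapped. Proliferating progenitor-like cells had 163 ± 111 CPM of Stmn3 (SD, n = 4) and astrocyte-like cells 30.6 ± 20.4 CPM (SD, n = 5). The pooled mature neuron-like cells had 471 CPM of Stmn3, against 372 CPM in the pooled neuroblast-like cells.

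Dcx had 906, 871, 848, 716 and 493 CPM in neuroblast-like cells. Proliferating progenitor-like cells came next, with 208, 193, 191 and 179 CPM in experiments 1 to 4, a narrow range that lay under every neuroblast-like value. Oligodendrocyte precursor-like cells had 56.5, 127, 76.004, 181 and 49.3 CPM. In experiment 4, with 5 precursor-like cells, their 181 CPM and the 179 CPM of proliferating progenitor-like cells were not told apart. Neural stem cell-like cells had no Dcx count in either experiment. Microglia-like cells, which should lack the gene, had 14.9 ± 24.1 CPM (SD, n = 5).

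Tubb3, the beta-tubulin used as a neuronal marker, had 489, 1068, 798, 1016 and 1354 CPM in neuroblast-like cells and 104, 276, 114 and 322 CPM in proliferating progenitor-like cells. The groups did not overlap. Tubb5 had 1859, 2625, 2083, 2012 and 2586 CPM in neuroblast-like cells and 3173, 2385, 1617 and 2147 CPM in proliferating progenitor-like cells, which overlapped over most of their range. Astrocyte-like, oligodendrocyte precursor-like, microglia-like, neural stem cell-like and mature oligodendrocyte-like cells had under 620 CPM of Tubb5 in every experiment, while endothelial-like cells reached 838 CPM and the cells of unnamed clusters 1306 CPM, both in experiment 2. Tubb2b, a beta-tubulin of developing cortex, was not confined to the neuronal line. It had 1973, 2593, 2036, 2919 and 1355 CPM in neuroblast-like cells, 1481 and 1295 CPM in neural stem cell-like cells and 1170.1, 1153, 619, 1484 and 1039.7 CPM in astrocyte-like cells. Proliferating progenitor-like cells, with 732, 627, 656 and 836 CPM, stood below the stem cell-like cells in the experiments that held both.

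Dpysl3, which binds tubulin and actin in growth cones, had 417, 205, 694, 365 and 246 CPM in neuroblast-like cells. Proliferating progenitor-like cells had 51.9, 221, 513 and 247 CPM and oligodendrocyte precursor-like cells 106, 114, 433, 121 and 49.3 CPM. In each of these classes experiment 3 was highest. The tables of that experiment list genes of a different annotation, and its part in the Dpysl3 level was not tested. Crmp1, a collapsin response protein of developing neurons, had 418, 700.2, 482, 707 and 739 CPM in neuroblast-like cells, and 147 ± 129 CPM in proliferating progenitor-like cells (SD, n = 4), with no overlap.

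Cells were also thinned to 500 UMIs each so that depth did not set the share of cells with a UMI of a gene. At that depth 68.5% of 181 neuroblast-like cells had Stmn1 (exact 95% interval 61.2% to 75.2%) and 35.9% had Dcx (28.9% to 43.4%), against 95.6% and 82.4% unthinned. In microglia-like cells the thinned shares were 5.24% for Stmn1, 0.350% for Dcx, 1.05% for Tubb3 and 13.6% for Tubb5. The median depth was 3897 UMIs in neuroblast-like and 1531.5 in microglia-like cells before thinning, and 1 neuroblast-like cell was too shallow. Stmn1 in 8.11% (5.09% to 12.1%) of oligodendrocyte precursor-like cells had an interval that overlapped that of microglia-like cells, so these shares were not told apart. Tubb5 in 16.99% (12.6% to 22.1%) of precursor-like cells had an interval that overlapped too. This widely expressed tubulin was also counted in microglia-like cells, at 349 ± 144 CPM (SD, n = 5). Stmn3, in 13.5% (9.60% to 18.3%) of oligodendrocyte precursor-like cells against 0.699% (0.0848% to 2.50%) of microglia-like cells, did not overlap. Intervals cover counting error only.

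**Figure D2:**
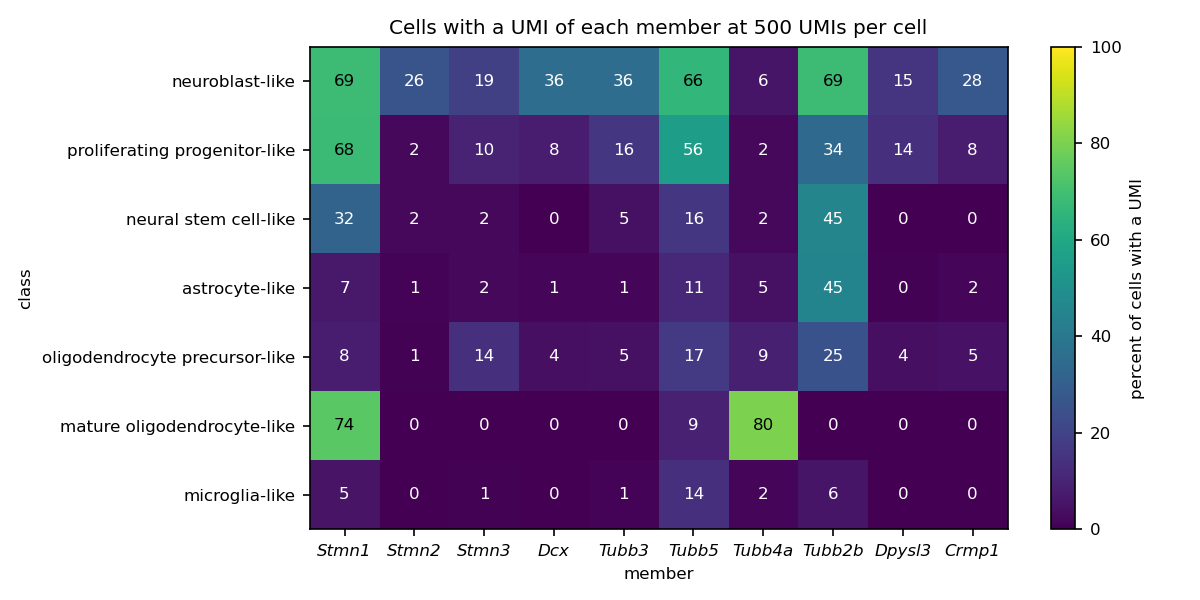
Share of cells with a UMI of each gene after thinning every cell to 500 UMIs, niche experiments pooled. Rows are classes, columns genes, and colour and printed numbers give the percent of cells. The mature oligodendrocyte-like row is high for Stmn1 (74.2%) and Tubb4a (80.3%) and at 0% for Stmn2, Stmn3, Dcx, Tubb3, Tubb2b, Dpysl3 and Crmp1.

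Neuroblast-like cells were set against neural stem cell-like cells, the start of the same lineage. Of the 10 genes 8 were higher in neuroblast-like cells (edgeR's quasi-likelihood test with experiment as a block, Benjamini-Hochberg adjusted p under 0.05 over 1935 genes), where 15% of all tested genes were called higher and 19% lower. At least 5 cells of both classes were found in experiments 2 and 3 alone, so the test has 2 pairs. Dcx had 369 counts in neuroblast-like cells and 0 in neural stem cell-like cells, which makes it at least 39.1-fold higher against a floor of 3 counts over the group. Stmn2, Crmp1 and Dpysl3 rested on 2, 3 and 2 counts in the stem cell-like cells. These genes and Dcx passed the filter on low counts through neuroblast-like cells alone, so a call of lower was not open to them. The CPM ratios were 44.8 (counting interval 12.3 to 372) for Stmn2, 30.1 (10.2 to 147) for Crmp1 and 18.4 (4.99 to 154) for Dpysl3.

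Tubb3 was higher in neuroblast-like cells, by a log2 fold change of 4.58 (SE 0.59, adjusted p = 0.00019). Stmn1, at 2.57 (SE 0.39, adjusted p = 0.00051), Tubb5, at 2.22 (SE 0.36, adjusted p = 0.00082), and Stmn3, at 2.07 (SE 0.53, adjusted p = 0.012), were higher by less. Tubb2b did not pass, at 0.56 (SE 0.34, adjusted p = 0.23), with values of 2593 and 2036 CPM in neuroblast-like cells and 1481 and 1295 CPM in neural stem cell-like cells. Tubb4a had too few counts to be tested. Without the experiment block 5 of the genes passed: Stmn1 (adjusted p = 0.066), Stmn3 (0.13) and Dpysl3 (0.098) did not. DESeq2 did not call Stmn3 either (adjusted p = 0.27). Over all genes the median log2 fold change was 0.12.

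Against astrocyte-like cells 8 of the 10 genes were higher in neuroblast-like cells over 5 experiments, where 16.5% of 2962 tested genes were called higher and 38.7% lower, and the median log2 fold change of all genes was -0.40. The same comparison with oligodendrocyte precursor-like cells called 8 of 10 higher, where 17.7% of 1975 genes were called higher and 33% lower, and the median was -0.23. These comparisons share their neuroblast-like cells. Genes with few counts in glia, such as Stmn2 (12 and 13 counts), passed the filter on low counts through neuroblast-like cells alone. Dcx and Tubb3, the classical neuroblast genes, were 3.60 (SE 0.38, adjusted p = 7.6e-20) and 3.94 (SE 0.38, adjusted p = 1.5e-23) higher on the log2 scale than in astrocyte-like cells. They were 2.64 (SE 0.30, adjusted p = 4.9e-17) and 2.87 (SE 0.30, adjusted p = 1.3e-20) higher than in oligodendrocyte precursor-like cells. Stmn1 was 3.55 (SE 0.32, adjusted p = 1.2e-26) and 4.03 (SE 0.28, adjusted p = 1.4e-45) higher, and Tubb5 2.34 (SE 0.29, adjusted p = 1.5e-14) and 1.87 (SE 0.24, adjusted p = 1.4e-13) higher, in the same order of comparisons. For each of these 4 genes, and for Stmn2 and Crmp1, the lowest neuroblast-like value lay above the highest value of both glial classes. The share of all genes so separated was not counted.

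The classes of glia separated 3 of the genes from the rest. Stmn3 was 2.77 (SE 0.43, adjusted p = 9.2e-10) higher in neuroblast-like than in astrocyte-like cells, and did not pass against oligodendrocyte precursor-like cells, at 0.22 (SE 0.28, adjusted p = 0.56). Tubb2b was 1.59 (SE 0.24, adjusted p = 3.05e-10) higher than in oligodendrocyte precursor-like cells and did not pass against astrocyte-like cells, at 0.25 (SE 0.28, adjusted p = 0.46). Dpysl3 had 3 counts in astrocyte-like cells, all in experiment 3, and a CPM ratio of 44.1 (counting interval 14.9 to 215). Against oligodendrocyte precursor-like cells it was 0.77 higher (SE 0.30, adjusted p = 0.021), in 5 of 5 experiments though with overlapping ranges, and without the experiment block it did not pass (adjusted p = 0.056).

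Stmn2 was 3.72 (SE 0.41, adjusted p = 1.5e-18) higher than in astrocyte-like and 4.81 (SE 0.41, adjusted p = 3.3e-30) higher than in oligodendrocyte precursor-like cells, and Crmp1 3.81 (SE 0.43, adjusted p = 9.4e-18) and 2.47 (SE 0.32, adjusted p = 9.75e-14) higher. Tubb4a passed in neither, with 130.1 ± 97.3 CPM in neuroblast-like, 49.6 ± 19.6 CPM in astrocyte-like and 169 ± 84.2 CPM in oligodendrocyte precursor-like cells (SD, n = 5 each). Calls of Tubb2b and Tubb4a against astrocyte-like cells depended on the scaling: on library size alone Tubb2b was 1.11 and Tubb4a 1.51 higher and both passed. Leaving out experiment 5, with 7 neuroblast-like cells, gave 0.75 for Tubb2b and 1.25 for Tubb4a, both past the threshold.

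**Figure D3:**
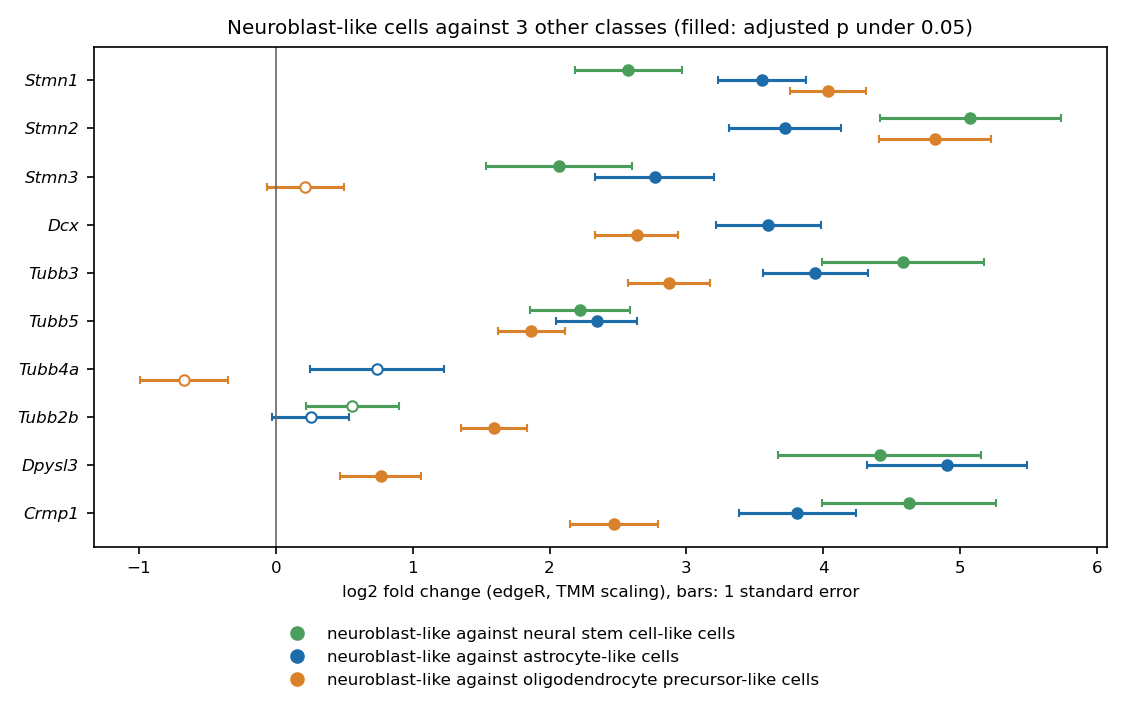
Log2 fold change of each gene in neuroblast-like cells against 3 other classes. Points are edgeR estimates with TMM scaling, bars are 1 standard error, and filled points have an adjusted p under 0.05. Dcx against neural stem cell-like cells is left out because the stem cell-like cells had no count. Stmn3 and Tubb4a are open against oligodendrocyte precursor-like cells (0.22 and -0.67), and Tubb2b against neural stem cell-like and astrocyte-like cells (0.56 and 0.25).

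Within the neuroblast-like cells, those with more late than early markers were set against the others in experiments 2, 3 and 4. The late markers include Neurod2 and Ncam1 of differentiating neurons, the early ones Eomes and Neurog2 of progenitors. The split is a range rather than a type: 16 cells lay within 0.1 of the border. Of the 10 genes Stmn2 alone passed, where 1.48% of 4533 genes were called higher and 0.64% lower. It had 983, 674 and 1001 CPM in late cells and 224, 145 and 235 CPM in early cells, with no overlap. Its log2 fold change was 2.15 (SE 0.19, adjusted p = 3.7e-05), and it passed under every alternative that was run.

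Tubb2b had 3007, 3036 and 3195 CPM in late cells and 1885, 1024 and 2482 CPM in early cells. Its difference of 0.71 (SE 0.18) was at the threshold (adjusted p = 0.053), and it passed in 13 of the 19 alternatives, for example without experiment 3 (0.51) or 4 (0.998). Tubb4a, at 1.38 (SE 0.36, adjusted p = 0.060), was higher in late cells in experiments 2 and 4 and lower in experiment 3, and passed in 11 of the 19. Stmn1, at -0.24 (adjusted p = 0.49), Tubb5, at 0.14 (adjusted p = 0.73), Tubb3, at 0.38 (adjusted p = 0.34), and Dcx, at 0.47 (adjusted p = 0.18), did not pass. With another seed for dividing the UMIs 6 genes passed, among them Dcx (0.68), Tubb3 (0.57) and Crmp1 (0.60), so the count moved from 1 to 6 with that choice.

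**Figure D4:**
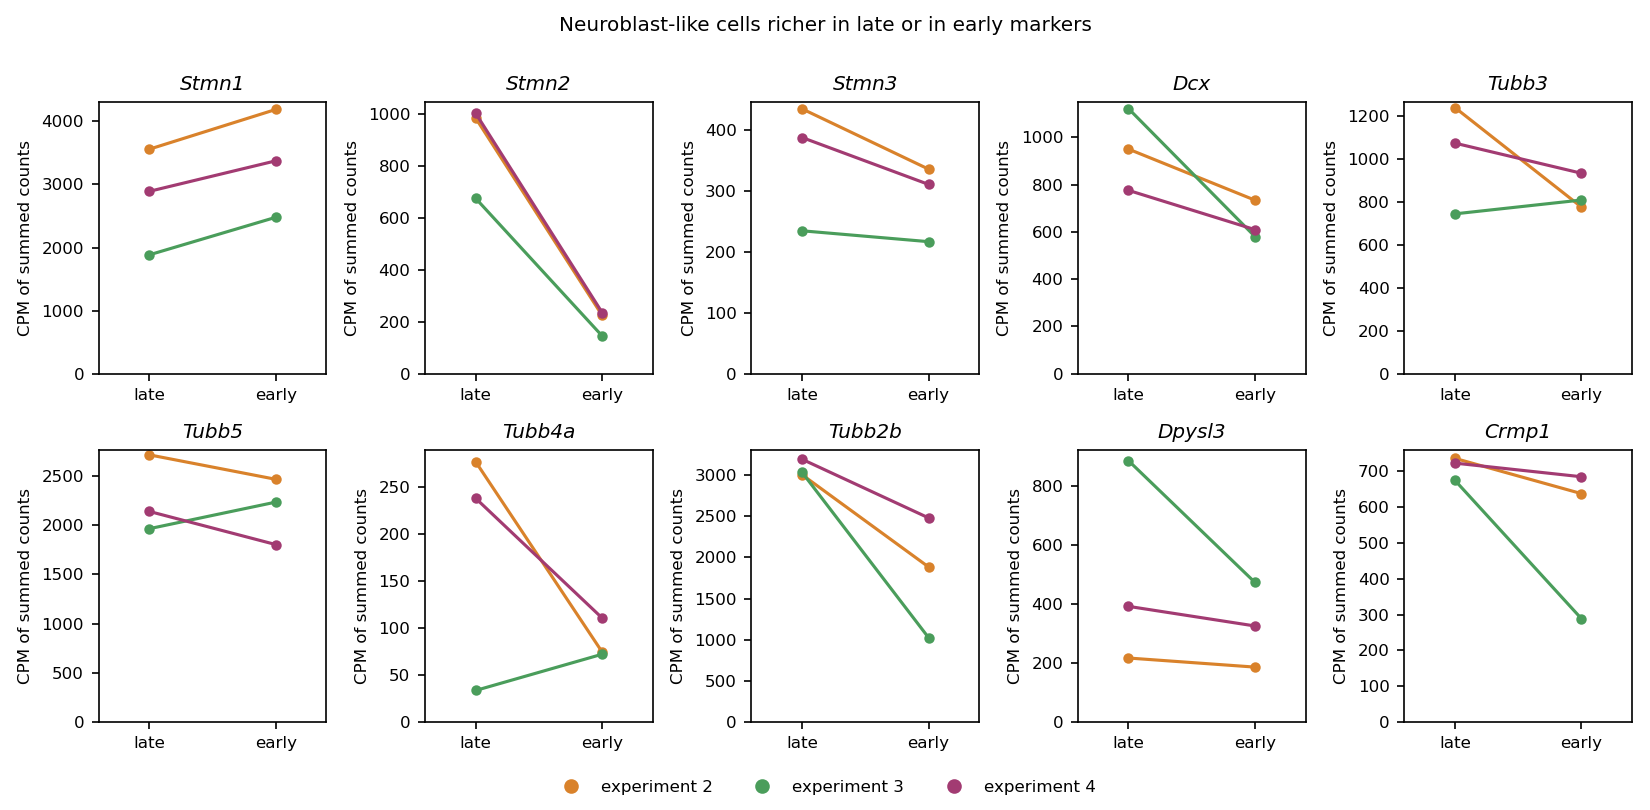
Each gene in neuroblast-like cells with more late markers (left) and with more early markers (right). The y axis is CPM of summed counts and starts at 0, and each line joins the groups of 1 experiment. Stmn2 is higher in the late cells of all 3 experiments (983, 674 and 1001 CPM against 224, 145 and 235 CPM), while the lines of Tubb5 cross.

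The oligodendrocyte lineage was followed through precursor-like cells, committed precursor-like cells (named from Gpr17, Bmp4, Enpp6 and others) and mature oligodendrocyte-like cells. Between its ends 4 genes could be tested, in experiments 1, 3 and 5, and all 4 differed, where 23.1% of 1323 genes were called higher and 33.1% lower and the median log2 fold change was -0.32. Stmn1 and Tubb4a were higher in mature oligodendrocyte-like cells, and Tubb5 and Tubb2b were lower. Stmn1 and Tubb4a passed the filter on low counts through mature cells alone, and Tubb2b through precursor-like cells alone. No call in the other direction was open to these genes.

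Tubb4a had 3562, 3525 and 4399.9 CPM in mature oligodendrocyte-like cells, against 126.3, 101 and 98.7 CPM in precursor-like cells of the same experiments, a log2 fold change of 4.74 (SE 0.38, adjusted p = 9.0e-33). Stmn1 had 1991, 1767 and 1941 CPM in mature oligodendrocyte-like cells and 49.9, 101 and 98.7 CPM in precursor-like cells, a difference of 4.56 (SE 0.41, adjusted p = 5.8e-27). Both genes were found in most mature cells after thinning, Stmn1 in 74.2% (exact 95% interval 61.99% to 84.2%) and Tubb4a in 80.3% (68.7% to 89.1%) of 66. Beside this Stmn1 level, Dcx, Stmn2 and Dpysl3 had no count in these cells, 2 or 3 of the 12 neuroblast markers were detected in an experiment, and those summed to 666, 1135 and 1350 CPM, against 949, 1170 and 864 CPM in precursor-like cells.

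Tubb2b had 31.2, 0 and 0 CPM in mature oligodendrocyte-like cells, against 646, 305 and 370.1 CPM in precursor-like cells, a log2 fold change of -4.93 (SE 0.62, adjusted p = 3.1e-14). Tubb5 had 93.4, 62.2 and 253 CPM, against 300.2, 431 and 395 CPM, a log2 fold change of -2.02 (SE 0.47, adjusted p = 5.0e-05), and it did not pass with DESeq2 (-1.77) or without a filter on low counts (-1.53). Dcx was at least 3.63-fold lower and Dpysl3 at least 8.41-fold lower in mature cells, with 22 and 51 counts in precursor-like cells and a floor of 3 counts over the mature cells. Crmp1, with 1 count in mature cells and 25 in precursor-like cells, had a CPM ratio of 0.0809 (counting interval 0.00197 to 0.494). The 4 beta-tubulins did not move together along the lineage: Tubb4a was higher and Tubb5 and Tubb2b lower, while Tubb3 could not be tested, at 56.6 ± 30.8 CPM in mature (SD, n = 3) and 85.7 ± 34.7 CPM in precursor-like cells (SD, n = 5).

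Committed precursor-like cells reached 5 cells in experiment 1 alone, which gives values without a test. Their 7 cells had 1936 CPM of Tubb4a and 84.2 CPM of Stmn1, so that Tubb4a lay between its precursor-like and mature values (126.3 and 3562 CPM in that experiment), while Stmn1 rested on 2 counts, with a CPM ratio to precursor-like cells of 1.69 (counting interval 0.188 to 7.27), and lay far under its mature value (1991 CPM). Tubb2b had 1325 CPM there, above the 646 CPM of precursor-like and the 31.2 CPM of mature cells. The 14 mature oligodendrocyte markers, of which 6 were detected, summed to 25894 CPM in the committed cells, against 882 CPM in the precursor-like cells and 109542 CPM in the mature cells of that experiment, and their part in the Tubb4a level was not tested. When experiments with 3 or 4 cells were admitted, experiment 2 joined and 1 of 9 tested genes passed: Tubb4a, higher by 2.67 (SE 0.38, adjusted p = 4.4e-10).

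**Figure D5:**
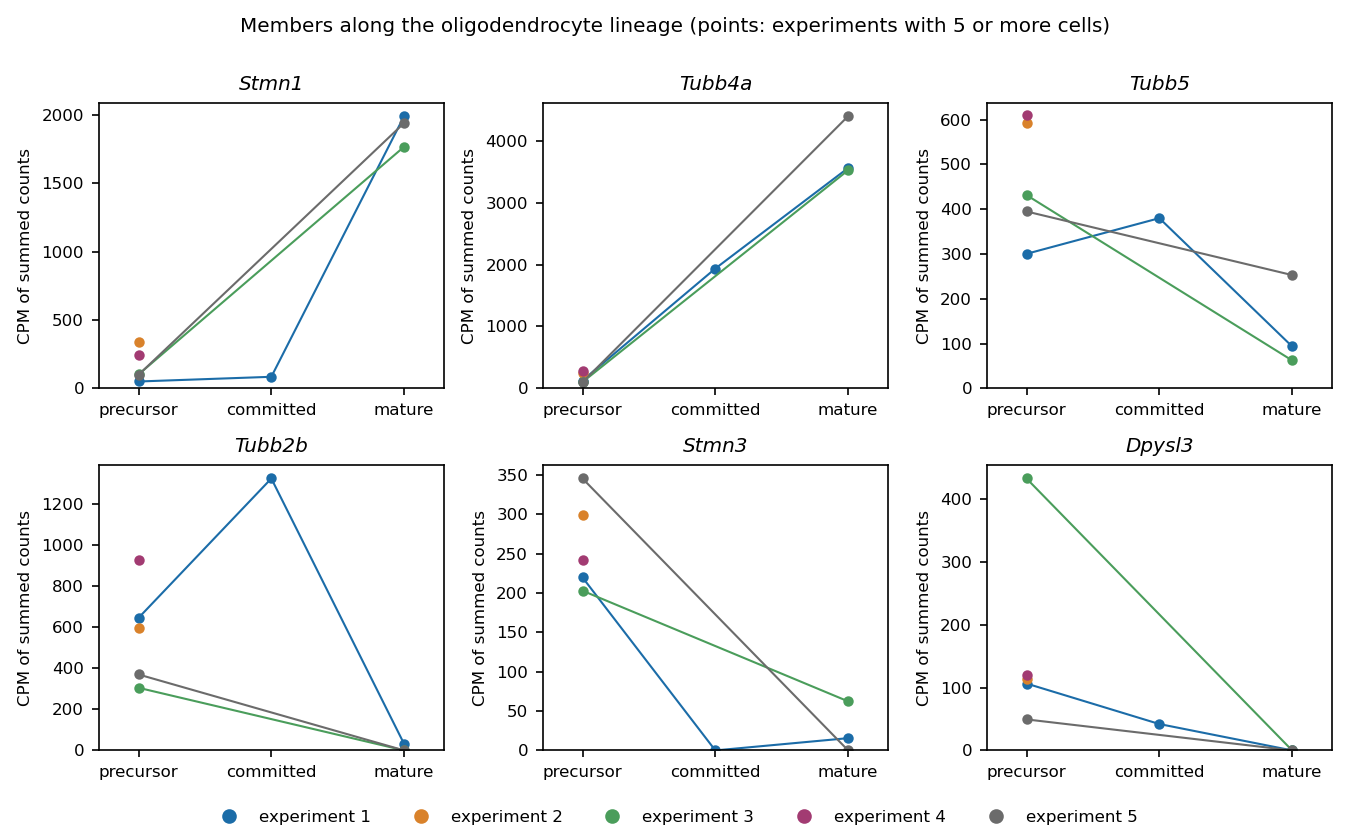
Levels of 6 genes in precursor-like, committed precursor-like and mature oligodendrocyte-like cells. The y axis is CPM of summed counts from 0, points are experiments with at least 5 cells, and lines join classes of 1 experiment. Stmn1 and Tubb4a are highest in the mature class (1767 to 1991 and 3525 to 4399.9 CPM), and Tubb2b is at 0 to 31.2 CPM there.

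Precursor-like cells were also set against astrocyte-like cells over 5 experiments. Of 5 genes tested, 3 were higher and 1 was lower in precursor-like cells, where 20.6% of 2882 genes were called higher and 21.6% lower. Stmn3 was 2.80 higher (SE 0.43, adjusted p = 6.1e-08), with 219.8, 298, 203, 242 and 345 CPM in precursor-like cells against 21.3, 45.8, 50.1, 35.6 and 0 CPM in astrocyte-like cells, and no overlap. Tubb4a was 1.61 higher (SE 0.43, adjusted p = 0.0013), and the mature oligodendrocyte markers summed to 765 to 1618 CPM in precursor-like cells, against 429 to 995 CPM in astrocyte-like cells, a difference whose part in the result was not tested. DESeq2 did not call Tubb4a (adjusted p = 0.085), and without the experiment block it had too few counts to be tested. Tubb5 was 0.73 higher (SE 0.26, adjusted p = 0.018) with overlapping ranges, and the call was lost with DESeq2 (adjusted p = 0.26), without the experiment block (adjusted p = 0.18) and without experiment 1 (log2 fold change 0.59), 3 (0.59) or 5 (0.69). Tubb2b was lower, at -1.17 (SE 0.22, adjusted p = 4.4e-06), and lower in 5 of 5 experiments. Stmn1 did not pass, at -0.29 (SE 0.34, adjusted p = 0.53).

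The old and Nestin-GFP libraries are 1 sample each, so their values are set beside the niche range without a test. The exact Poisson intervals given with them cover counting error only. Both libraries have more wells and a larger pool of possible UMIs than any library of experiments 1, 3 and 4. The libraries of experiment 5 and 1 library of experiment 2 share their form. What this difference in form adds to the values below was not tested. In the 11 neuroblast-like cells of old mice 10 of 10 genes had counts. Dcx had 1092 CPM (804 to 1446) there, against 493 to 906 CPM in the niche experiments, and Tubb2b 3282 CPM (2758 to 3851), against 1355 to 2919 CPM. Stmn2, with 910.5 CPM (649 to 1237) in old mice against 413 to 862 CPM, and Tubb5, with 2986 CPM (2488 to 3531) against 1859 to 2625 CPM, also lay above the niche range. Dpysl3 was low, with 182 CPM (78.4 to 358) in old mice, against 205 to 694 CPM. All 5 intervals reached into the niche range. Stmn1 (3077 CPM), Stmn3 (363 CPM), Tubb3 (1183 CPM) and Crmp1 (591 CPM) lay within their niche ranges.

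In the 41 neuroblast-like cells of the Nestin-GFP library 9 of 10 genes lay within the niche range, and the share of all genes within it was not counted. The exception was Tubb4a, with 345 CPM (254 to 459), against 0 to 208 CPM in the niche experiments. Tubb4a was also above the niche range in Nestin-GFP astrocyte-like cells, with 277 CPM (213 to 353) against 21.3 to 76.3 CPM. Markers of mature oligodendrocytes moved with it. In the neuroblast-like cells of the Nestin-GFP library 13 of the 14 were detected and summed to 3275 CPM, against 1 to 10 of 14 and 188 to 492.4 CPM in the niche. In its astrocyte-like cells 14 of 14 were detected and summed to 3219 CPM, against 5 to 10 of 14 and 429 to 995 CPM in the niche. Their part in the Tubb4a level was not tested.

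In the 67 oligodendrocyte precursor-like cells of the Nestin-GFP library 8 of the 10 genes lay within the niche range, and the share of all genes was again not counted. Stmn3 lay under it, with 154 CPM (108 to 213) in Nestin-GFP cells against 203 to 345 CPM, and Tubb4a above it, with 286 CPM (222 to 363) against 98.7 to 273 CPM, and both intervals reached into the niche range. The mature oligodendrocyte markers, with 14 of 14 detected, summed to 2707 CPM in these cells, against 4 to 13 of 14 and 765 to 1618 CPM in the niche, and their part in the Tubb4a level was not tested.

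Mature oligodendrocyte-like cells numbered 5 in the old and 90 in the Nestin-GFP library. Stmn1 was under the niche range in both, with 1209.5 CPM (757 to 1828) in old and 1350.5 CPM (1231 to 1480.1) in Nestin-GFP cells, against 1767 to 1991 CPM in the niche. The old interval reached into that range. The summed markers of mature oligodendrocytes were also lower, at 59608 CPM in old and 73091 CPM in Nestin-GFP cells, against 92681 to 109542 CPM, and their part in the Stmn1 level was not tested. Tubb4a lay within its niche range in both, at 4023 CPM (3141 to 5038) and 3757 CPM (3555 to 3969). Tubb2b had 129 CPM (93.5 to 173) in Nestin-GFP cells, against 0 to 31.2 CPM in the 3 niche experiments with at least 5 such cells. Of the 12 neuroblast markers, 10 were detected in these Nestin-GFP cells, against 2 or 3 in a niche experiment. Their sum of 1089 CPM lay within the niche range of 666 to 1350 CPM. Their part in the Tubb2b level was not tested.

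Other microtubule genes were read from 7 lists by role, of which 74 genes had counts. Between neuroblast-like and astrocyte-like cells 12 of 41 tested were higher and 10 lower, beside 16.5% and 38.7% of all genes, with a median log2 fold change of 0.25 beside -0.40 over all genes. Map1b, a polymer-binding protein of growing axons, was higher by 4.29 (SE 0.42, adjusted p = 8.2e-23), and Dpysl5, of the collapsin response family, by 3.51 (SE 0.53, adjusted p = 3.0e-10). The alpha-tubulin Tuba4a, at -5.76 (SE 0.58, adjusted p = 7.9e-22), and Dclk1, a doublecortin relative, at -2.73 (SE 0.30, adjusted p = 4.4e-18), were lower in neuroblast-like cells. Dcx and its relative Dclk1 had opposite signs in this comparison. Against neural stem cell-like cells 9 of 33 were higher and 3 lower, beside 15% and 19% of all genes (median 0.60 beside 0.12), and Dclk1 was again lower (-2.16, SE 0.34, adjusted p = 0.00067). Against oligodendrocyte precursor-like cells 9 of 32 were higher and 3 lower, beside 17.7% and 33% of all genes (median 0.19 beside -0.23), led by the kinesin Kif21a, at 4.99 (SE 0.49, adjusted p = 1.3e-22).

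Late against early neuroblast-like cells gave 5 of 49 higher, beside 1.48% of all genes (median 0.27 beside 0.02). The 5 were Stmn4, another stathmin (2.34, SE 0.48, adjusted p = 0.020), Mapt, which encodes tau (2.13, SE 0.22, adjusted p = 0.00010), Dpysl5 (1.18, SE 0.24, adjusted p = 0.020), the beta-tubulin Tubb2a (1.14, SE 0.21, adjusted p = 0.011) and Map1b (1.07, SE 0.19, adjusted p = 0.0066). The other 44 did not pass by the quasi-likelihood test.

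In mature oligodendrocyte-like against precursor-like cells 11 of 24 were higher and 5 lower, beside 23.1% and 33.1% of all genes (median 0.49 beside -0.32). The structural microtubule-associated proteins made up 6 of the 11: Tppp, which bundles microtubules in myelinating cells (4.61, SE 0.50, adjusted p = 7.3e-19), Tppp3, Map7, Map1a, Map7d1 and Mapt, with Map2, a dendrite protein in neurons, lower (-3.85, SE 0.58, adjusted p = 3.8e-10). Tppp3 and the kinesin Kif21a rested on 2 counts in precursor-like cells, with CPM ratios of 64.7 (counting interval 17.2 to 546) and 67.7 (18.03 to 571). Tubb2a was lower, at -4.67 (SE 0.63, adjusted p = 1.1e-12), in the direction of Tubb2b. In precursor-like against astrocyte-like cells 6 of 33 were higher and 10 lower, beside 20.6% and 21.6% of all genes (median 0.20 beside 0.08), so that the share called higher lay near that of all genes, with Nav1, a plus-end protein, higher by 3.38 (SE 0.31, adjusted p = 2.0e-15) and Tubb4b lower (-1.94, SE 0.26, adjusted p = 1.1e-09).

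The genes whose level followed each member most closely were found over 37 sums of 11 classes among 5009 genes, as Pearson correlations of log2 CPM with 10 added. The sums share libraries and differ in depth, so the values are a description. Dcx was most like Sox11, a transcription factor of young neurons (0.93), Sept3 (0.90) and Pcp4 (0.90). Stmn2 was most like Cd24a (0.88), the gene of a sort antigen, Nhlh1 (0.86) and Igfbpl1 (0.82). Tubb3 was most like Igfbpl1 (0.85), Dcx (0.85) and Nsg2 (0.84), and Stmn3 was most like Ctxn1 (0.88), Crmp1 (0.84) and Cadm3 (0.83). Tubb5 was most like Hmgn2, a nucleosome-binding protein (0.88), and Dpysl3 like Myt1 (0.88). Crmp1 was most like Stmn3 (0.84) and Tubb2b like Tagln3 (0.87) and Map2 (0.86). Tubb4a stood apart, being most like Tspan2 (0.84) and Nfasc (0.83), genes of myelinating cells. Stmn1, high in 3 classes, had no close match, with Tubb3 at 0.76, Hmgn2 at 0.75 and Igsf8 at 0.73.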

How the data were processed

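The authors deposited estimated counts, for each gene and well, that carry a correction for UMI saturation. The submitters' processing notes name BWA 0.6.2-r126 and mm10; annotation and counting tool are not given there. Inverting the correction yielded whole UMIs (within 0.05) for 99.3% to 100% of each library's values. Of each cell's UMIs 50% were drawn at random for clustering (scanpy 1.11.5, 11934 genes, scale of 10000, 2000 variable genes, 30 components, 15 neighbours, Leiden at resolution 1) and the rest gave all levels and tests, as estimated counts rounded to whole numbers. The 10 genes and 7 lists stayed out of the clustering and the 19 marker sets. A cluster was named at a marker score of 0.5 with 3 markers in 10% of its cells, a rule set after seeing the clusters. The clustering used genes counted in every experiment, because experiment 3, whose tables use another annotation, otherwise clustered by itself. No doublet caller was run. An alternative left out cells with 3 markers of a second class, which were 56.7% of the neuroblast-like cells of experiment 4 and 78.05% of the precursor-like cells of experiment 2.

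Sums per class and experiment were tested with edgeR 4.0.16 (R 4.3.3; TMM scaling and filterByExpr; the quasi-likelihood F test; a Benjamini-Hochberg threshold of 0.05 over all tested genes). The experiment was the replicate and the block, since the classes compared lie on the same plates. Standard errors are the log2 fold change over the root of F. Classes needed 5 cells in at least 2 experiments. A gene with few counts in 1 class could pass the filter through the other class alone, so it could be called higher in the latter only. The edgeR test was also run on simulated counts that held no differences between experiments and no changed genes near 0 counts. That run therefore says nothing about the block or about such genes. DESeq2 1.42.0, other scalings, filters, resolutions and divisions, and each experiment left out, were alternatives; TMMwsp scaling and library size alone were added after seeing the data. The members and lists were chosen with earlier results of these data known. The named genes are all 10 members and, of the lists, up to 4 per direction by size of change; Map1b in late cells and 4 structural proteins in mature oligodendrocyte-like cells were named after their values were seen. Positions and promoters come from RefSeq on GRCm38.p6, and transcripts from GENCODE vM21.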

Additional observations from a re-analysis of the deposited data

Results flagged for a closer look

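In 80 groups of 4 or 5 experiments, 13 had 1 experiment far from the others by Dixon's criterion. For normally distributed values chance gives about 1 in 20 groups. Levels that rest on a few counts are not so distributed, so the 13 cannot be set against that rate. Those on more than 5 counts were Stmn2 in early neuroblast-like cells, with 742 CPM in experiment 1 (10 counts in 6 cells) against 145 to 235 CPM in the others, and Tubb2b in late neuroblast-like cells, with 1936 CPM in experiment 5 against 3007 to 3195 CPM. Dpysl3, also on more than 5 counts, had 433 CPM in the oligodendrocyte precursor-like cells of experiment 3, against 49.3 to 121 CPM. On few counts, Dpysl3 was also set apart in that experiment in astrocyte-like cells (37.7 CPM, 3 counts) and microglia-like cells (29.3 CPM, 2 counts). All other experiments were at 0 there.

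The other 8 also rest on 1 to 5 counts. In oligodendrocyte precursor-like cells Stmn2 had 90.3 CPM in experiment 4 and Tubb3 had 25.4 CPM, a low value, in experiment 3. In microglia-like cells Stmn3 had 33.7 CPM in experiment 2 and Dcx 56.8 CPM in experiment 4. In lymphoid-like cells Stmn2 had 44.97 CPM, Dcx 33.8 CPM and Dpysl3 11.2 CPM in experiment 4, and Tubb4a had 72.5 CPM in experiment 2.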

How the results depend on the processing

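Among fold changes of called genes under alternatives, 613 kept direction and call, 17 kept the direction alone and 0 turned; among genes not called, 50 passed under an alternative. Leaving out each experiment gave 8 to 10 genes called in neuroblast-like against astrocyte-like cells, 8 against oligodendrocyte precursor-like cells, 4 to 5 in mature oligodendrocyte-like cells, 3 to 4 in precursor-like against astrocyte-like cells and 1 to 3 in late against early cells. The late count of 1 became 2 on library size alone, 3 with at least 10 cells, TMMwsp, no filter, resolution 0.6 or cells of a second class left out, 4 with 2000 transcripts per well or resolution 1.5, 5 with all counts or the microtubule genes kept in the clustering, and 6 with a second division. The cause was not tested.

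Without the replicate block 5 genes were called against neural stem cell-like cells and 2 in precursor-like against astrocyte-like cells, where 8 were called with all counts. The block changed no other call than those named and Tubb4a in the last comparison, which was not tested without it. DESeq2 did not call Stmn3 against neural stem cell-like cells, Tubb5 in mature oligodendrocyte-like against precursor-like cells, or Tubb4a and Tubb5 in precursor-like against astrocyte-like cells. Stmn1 in precursor-like against astrocyte-like cells ranged from -0.45 to 0.063 with 1 experiment left out (0.063 without experiment 2), and turned to 0.056 on library size alone, 0.23 with 2000 transcripts, 0.25 with a second division and 0.080 with all counts; the cause was not tested.

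Scaling moved the share of called genes that were higher. In neuroblast-like against astrocyte-like cells it was 29.9% with TMM, 47.9% with TMMwsp and 59.8% on library size alone, and in precursor-like against astrocyte-like cells 48.8% and 69.3%. Against oligodendrocyte precursor-like cells it was 34.9%, and 46.9% on library size alone, and against neural stem cell-like cells 44.2%, and 34.01% with RLE. Neural stem cell-like cells gave no value at resolution 0.6, and with 2 experiments none could be left out.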
